A study of Homo sapiens with 6 samples.

Results

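A set of 10 genes of fatty acid uptake, lipid storage and cholesterol export were followed in HL-60 cells, a line of promyelocyte type from a human myeloid leukaemia that grows in suspension. They are 10 of the 58302 genes counted, and were taken by symbol: the receptor genes PPARG and NR1H3, the uptake genes CD36 and LPL, the fatty acid carriers FABP4 and FABP5, the droplet coat gene PLIN2, the exporter genes ABCA1 and ABCG1, and APOE. The set was drawn up with results of this comparison known, so its values are given as a description, with no p-values printed. Calls of members at an adjusted p under 0.05 come from the test of all genes and are also description only. Neither the values nor the calls support a claim about the pathways. RNA sequencing covered 3 libraries of cells carrying an shRNA (short hairpin RNA) that targets OSGEP, labelled as OSGEP knockdown, and 3 libraries of cells with a control hairpin, labelled WT. All were grown in medium with 20% fetal bovine serum. OSGEP encodes the catalytic subunit of the complex that places the t6A modification on tRNAs. The labels do not say how many hairpins were used, whether a line is 1 clone or whether libraries of a group are separate cultures, so the spread between them may be technical.

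PPARG is a nuclear receptor that binds fatty acids and their derivatives, pairs with a retinoid X receptor (RXR) and switches on genes for taking up and storing fat. The liver X receptors (LXR), NR1H3 and its relative NR1H2, bind oxidised cholesterol, also pair with RXR, and switch on genes that move cholesterol out of the cell. In macrophages the 2 programmes are known to be linked, since PPARG can raise NR1H3. PPARG with RXR favours DNA sites made of a repeated 6-base element spaced by 1 base, and LXR with RXR favours the same repeat spaced by 4 bases.

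Both kinds of site were looked for in the members' promoters, and the sequences below show the only matches. The windows run from 250 bases before to 50 bases after each start in RefSeq on GRCh38.p14. Windows existed for 6 of the 10 members, 21 in all: PPARG, CD36, PLIN2, ABCA1, NR1H3 and APOE. Entries for FABP4, FABP5, LPL and ABCG1 were missing. The motifs, read on both strands, were the element AGGTCA, 2 copies of it in the same direction with N (1 base) or NNNN (4 bases) between them and up to 2 of the 12 fixed bases changed, and TATAAA. The single element is contained in both repeats. The 250 bases before the start are printed 5′ to 3′ on the gene's strand, with the match in capitals; each match lies on the opposite strand of the gene.
ABCA1, chr9:104928156-104928405, minus strand: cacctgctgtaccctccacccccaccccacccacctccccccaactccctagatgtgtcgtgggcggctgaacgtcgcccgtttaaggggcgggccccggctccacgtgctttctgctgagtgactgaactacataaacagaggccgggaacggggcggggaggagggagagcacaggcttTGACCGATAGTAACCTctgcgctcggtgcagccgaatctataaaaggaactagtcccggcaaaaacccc
CD36, chr7:80638266-80638515, plus strand: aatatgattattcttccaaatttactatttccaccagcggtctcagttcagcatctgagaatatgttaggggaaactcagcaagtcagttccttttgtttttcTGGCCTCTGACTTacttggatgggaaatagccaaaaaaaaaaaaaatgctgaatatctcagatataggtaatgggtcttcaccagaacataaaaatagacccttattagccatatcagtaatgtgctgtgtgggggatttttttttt

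The ABCA1 promoter held the repeat spaced by 4, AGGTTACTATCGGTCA when read along the motif, from 69 to 54 bases upstream of the start (chromosome 9, 104928209 to 104928224), with 2 bases changed. A TATAAA stood from 31 to 26 bases upstream. GENCODE release 29 places the site inside an exon of 1 of the 4 ABCA1 transcripts, which starts further upstream, and outside the others. The third of the 6 CD36 windows held the repeat spaced by 1, AAGTCAGAGGCCA, from 147 to 135 bases upstream (chromosome 7, 80638369 to 80638381), also with 2 bases changed. It lies in an intron of 8 of the 24 CD36 transcripts and in an exon of 0. Of all 35116 windows, 2.97% held the repeat spaced by 1 and 2.34% the repeat spaced by 4 at this tolerance. The single element occurred in 13.8% of all windows, and among the members in windows of PPARG and NR1H3. TATAAA occurred in 11.5% of all windows, and among the members in windows of ABCA1, CD36, PLIN2 and PPARG. A match describes letters only, and which start HL-60 uses was not measured here.

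**Figure D1:**
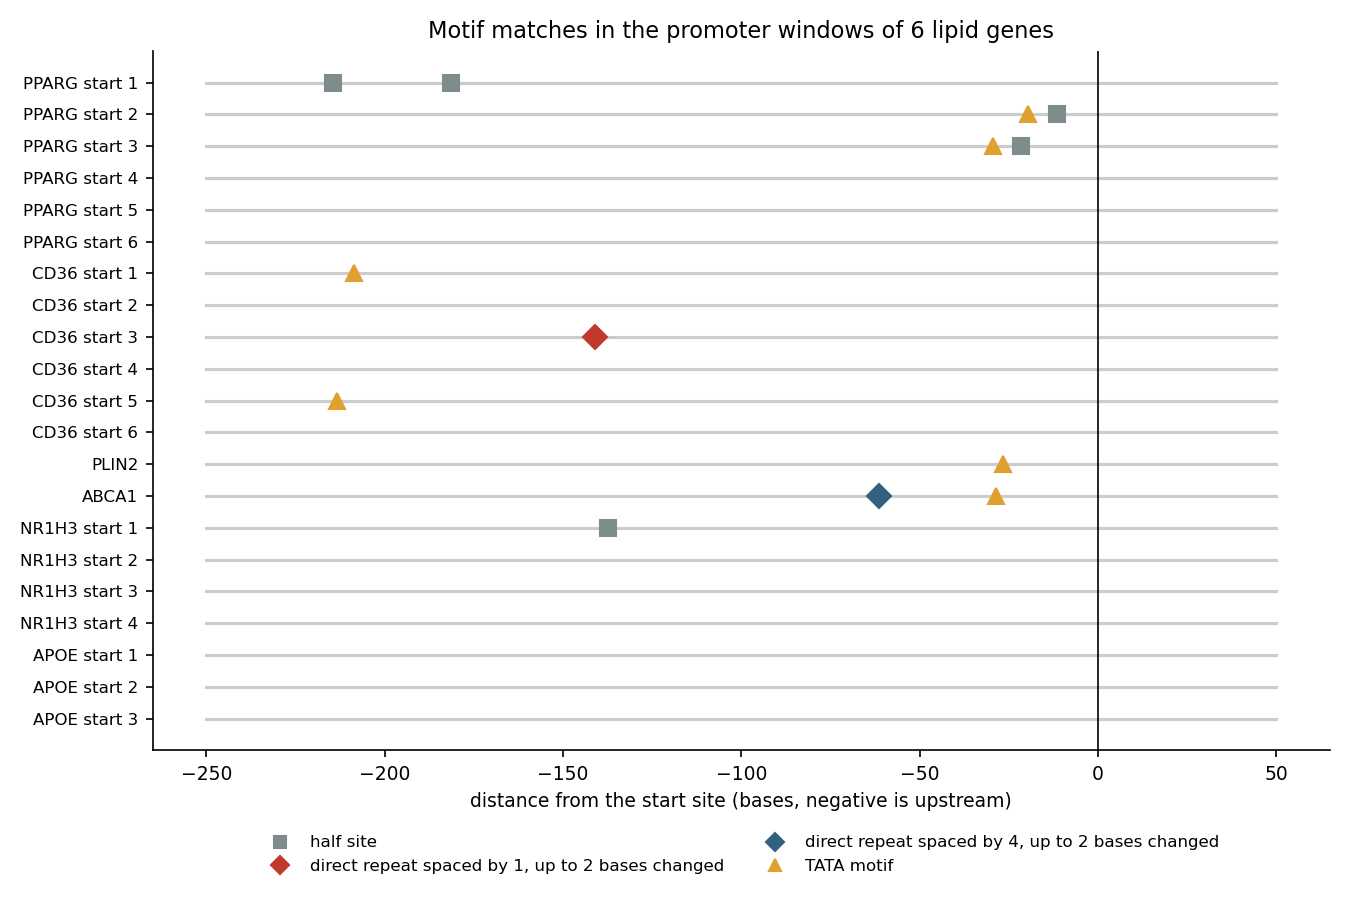
Positions of motif matches in the 21 promoter windows of 6 members, as distance from the start site in bases, with upstream negative. Each grey line is 1 window, and the starts of a gene are numbered by position along the chromosome. The repeat spaced by 4 appears in the ABCA1 window and the repeat spaced by 1 in 1 CD36 window.

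The windows also differed in base composition. All 6 CD36 windows held between 35.0% and 43.7% G and C, below the lower quartile of 47.0% over all windows (median 58.7%). The PPARG windows ranged from 41.0% to 56.7%, so some of them also lay below that quartile. Those of NR1H3 held 50.3% to 66.0% and those of APOE 52.7% to 66.0%. The ABCA1 window held 62.7% and the PLIN2 window 76.7%. The CpG content over that expected from the bases was 0.0855 to 0.328 for CD36, 0.782 for ABCA1 and 0.818 for PLIN2, with a median of 0.579 over all windows. It was 0.0654 to 0.665 for PPARG, 0.105 to 0.846 for NR1H3 and 0.254 to 0.688 for APOE. Low values were therefore not particular to CD36.

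Expression is given as CPM, the counts of a gene as parts of 1e6 counts on the 14018 genes tested below. The values follow TMM scaling, which adjusts for library composition. Values are listed in the order of replicates 1, 2 and 3. OSGEP itself, the check of the labels, stood at 21.2, 23.1 and 20.9 CPM in the knockdown and 49.05, 54.4 and 76.9 in the control. In all, 14018 genes were tested with edgeR, and 10.8% of them were called at an adjusted p under 0.05, 5.19% higher and 5.56% lower in the knockdown (727 and 780 genes, or 859 and 612 with library size alone). Of the 10 members, 9 passed the filter on low counts, 3 were called higher and 2 lower. FABP4 was not tested. The median log2 fold change was 0.13 over the 9 members tested and 0.01 over all genes tested. With every alternative run, 4 or 5 members were called, beside these shares of all genes: 10.4% with RLE factors, 10.5% with library size alone, 6.22% without the filter, 14.8% with a filter at a mean of 5 CPM, 7.65% with a replicate block, 10.7% with DESeq2 and 11.1% with limma-voom. With 1 library left out the shares were 10.8%, 9.27% and 6.29% without knockdown 1, 2 and 3, and 6.78%, 5.92% and 5.78% without control 1, 2 and 3. Since the members were chosen from this contrast, nothing is read from these counts.

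**Figure D2:**
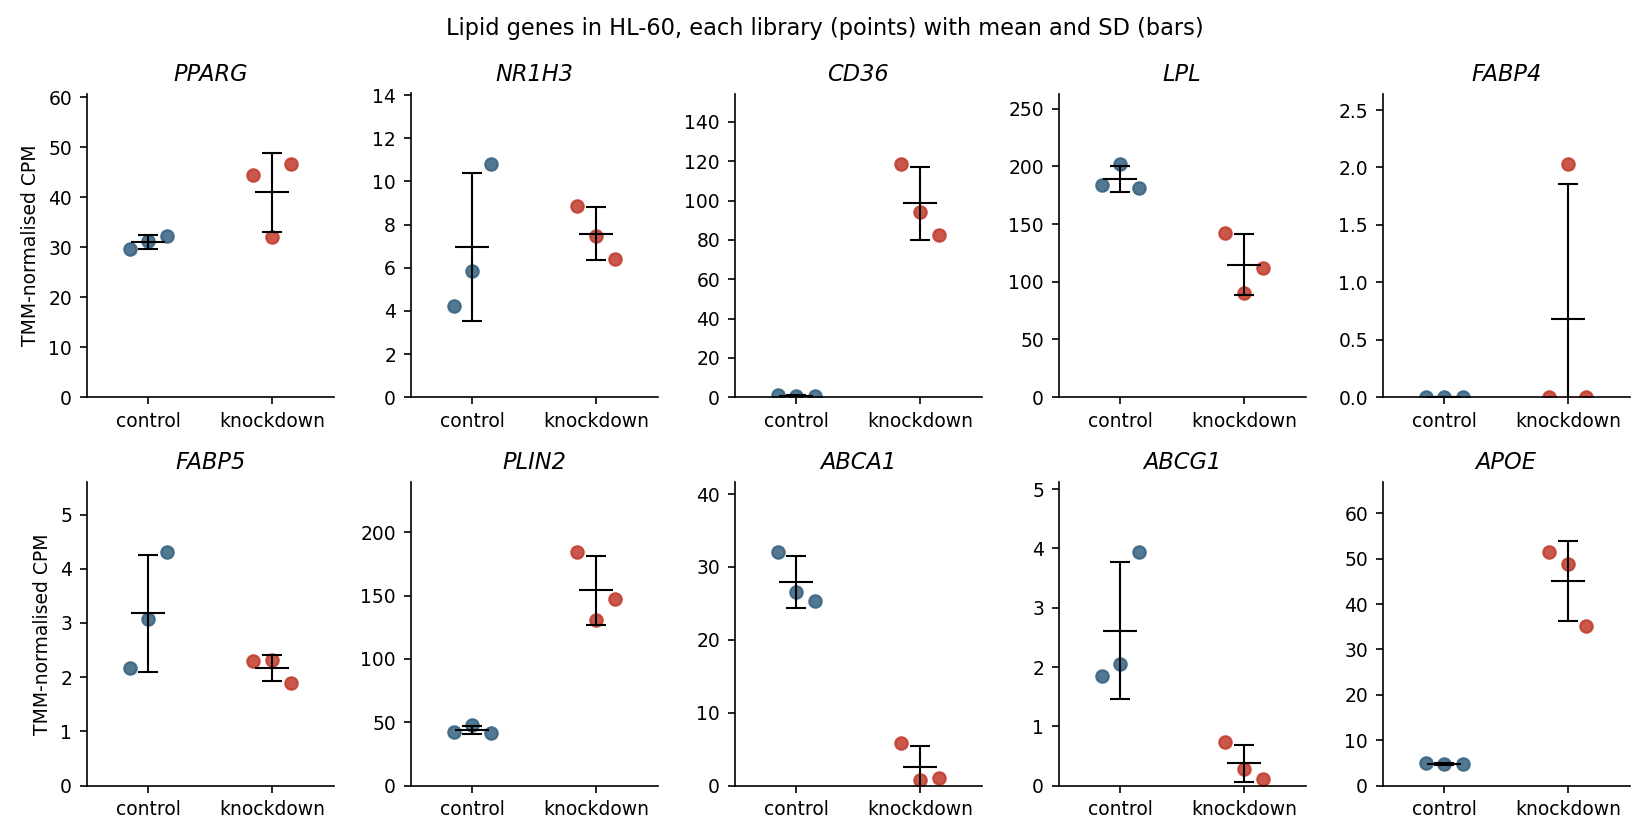
TMM-normalised CPM of the 10 members in each library (points, 3 per group), with the mean and SD of each group (bars; SD bars are cut at 0). CD36, PLIN2 and APOE lie above all controls in the 3 knockdown libraries, and LPL, ABCA1 and ABCG1 are lower.

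The receptor genes themselves were not called. PPARG (ENSG00000132170, chromosome 3, 12287368 to 12434356) had 44.3, 31.99 and 46.7 CPM in the knockdown and 29.6, 31.3 and 32.2 in the control. Knockdown library 2 lay within the control range, so the groups overlap, and the log2 fold change was 0.40 (SE 0.21). A pseudogene on the same strand within PPARG, PFDN1P1, had 115 counts in the knockdown and 104 in the control. NR1H3, which encodes LXR alpha (ENSG00000025434, chromosome 11, 47248300 to 47269032), had 8.87, 7.49 and 6.40 CPM in the knockdown and 4.22, 5.83 and 10.8 in the control. The controls spanned the whole knockdown range, and the log2 fold change of 0.13 (SE 0.47) turned to -0.14 without control 1. NR1H3 overlaps ACP2 on the opposite strand, which had 365 counts in the knockdown and 238 in the control. The strand setting of the counting is not given in the sources used here, so reads of the 2 genes may not be told apart.

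CD36, the membrane receptor that takes up long-chain fatty acids and oxidised lipoproteins, had the largest change of the members. It had 9, 8 and 5 counts in the control and 1139, 1021 and 695 in the knockdown. That is 0.927, 0.818 and 0.615 CPM against 119, 94.4 and 82.4 CPM, a 122-fold difference (log2 6.93, SE 0.28). No library of either group came near the other. No control library reached the filter's minimum count of 10, so CD36 passed the filter through the knockdown alone. The gene (ENSG00000135218) spans chromosome 7 from 80369575 to 80679277, and the 4 annotated genes that overlap it had 0 counts in every library. In bulk RNA, more cells that express a gene and more RNA per cell cannot be told apart.

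LPL, the secreted lipase that frees fatty acids from lipoproteins and thereby feeds CD36, went the other way. It had 142, 90.2 and 112 CPM in the knockdown and 184, 202 and 181 in the control, and the groups did not overlap. It fell 1.65-fold (log2 fold change -0.72, SE 0.15). The change was small beside that of CD36, and without knockdown 3 it no longer passed the threshold (-0.68). LPL (ENSG00000175445) lies on chromosome 8.

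The cytosolic fatty acid carriers were barely detected. FABP4, a standard PPARG target in fat cells and macrophages, was at 0 in 5 libraries and had 22 counts in knockdown 2 alone. No fold change is given, since 2 of the 3 knockdown libraries were at 0. A count of 0 over the control group allows up to 0.109 CPM. FABP5, the carrier of skin and macrophages, had 2.30, 2.31 and 1.90 CPM in the knockdown and 2.16, 3.07 and 4.31 in the control, with overlap (log2 fold change -0.55, SE 0.81). The FABP5 value is uncertain, because reads can fall on processed copies of the gene. Of 15 annotated FABP5 pseudogenes, 6 had counts, which summed to 454 in the knockdown and 260 in the control, against 63 and 86 for FABP5 itself. Both carriers (ENSG00000170323 and ENSG00000164687) lie on chromosome 8.

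PLIN2 coats lipid droplets and is a common readout of stored fat. It had 184, 131 and 148 CPM in the knockdown and 42.1, 47.8 and 41.7 in the control. Every knockdown library held well over the highest control, a 3.51-fold difference (log2 1.81, SE 0.16). Its locus (ENSG00000147872) is chromosome 9, 19108375 to 19149290, minus strand.

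ABCA1 and APOE, both known LXR targets, went opposite ways. ABCA1, which loads cholesterol onto apolipoprotein particles (ENSG00000165029, chromosome 9, 104781002 to 104928237), had 32.05, 26.6 and 25.4 CPM in the control and 5.84, 0.740 and 1.07 in the knockdown. All knockdown libraries were below all controls, and knockdown 1, with 56 counts against 8 and 9 in the others, stood apart. The fall was 10.9-fold (log2 fold change -3.45, SE 0.55), and -4.96 on the log2 scale without knockdown 1. Not all knockdown libraries reached the filter's minimum count of 10, so ABCA1 passed through the control, the group where it is high. ABCG1, which exports cholesterol to mature particles (ENSG00000160179, chromosome 21, 42199689 to 42297244), was scarce, at 18, 20 and 32 counts in the control and 7, 3 and 1 in the knockdown. No knockdown library reached a count of 10, so ABCG1 passed the filter through the control alone, the group where it is high. Its groups did not overlap, but the gene was not called (log2 fold change -2.75, SE 1.18). The ratio of its summed counts was 0.1505 (exact 95% interval 0.0718 to 0.286, counting error only).

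APOE, the secreted apolipoprotein that accepts exported cholesterol was higher. It had 51.4, 48.8 and 35.1 CPM in the knockdown and 4.95, 4.70 and 4.68 in the control, with no overlap and little spread among controls. The difference was 9.43-fold (log2 3.24, SE 0.27). APOC1, the neighbouring apolipoprotein gene on the same strand of chromosome 19 (APOE, ENSG00000130203, at 44905754 to 44909393, APOC1 at 44914247 to 44919349), was not called. APOC1 had 132 ± 10.1 CPM in the knockdown and 139.9 ± 11.1 in the control (SD, n = 3 each; log2 fold change -0.08, adjusted p = 0.800 in edgeR), and was singled out after its values were seen.

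**Figure D3:**
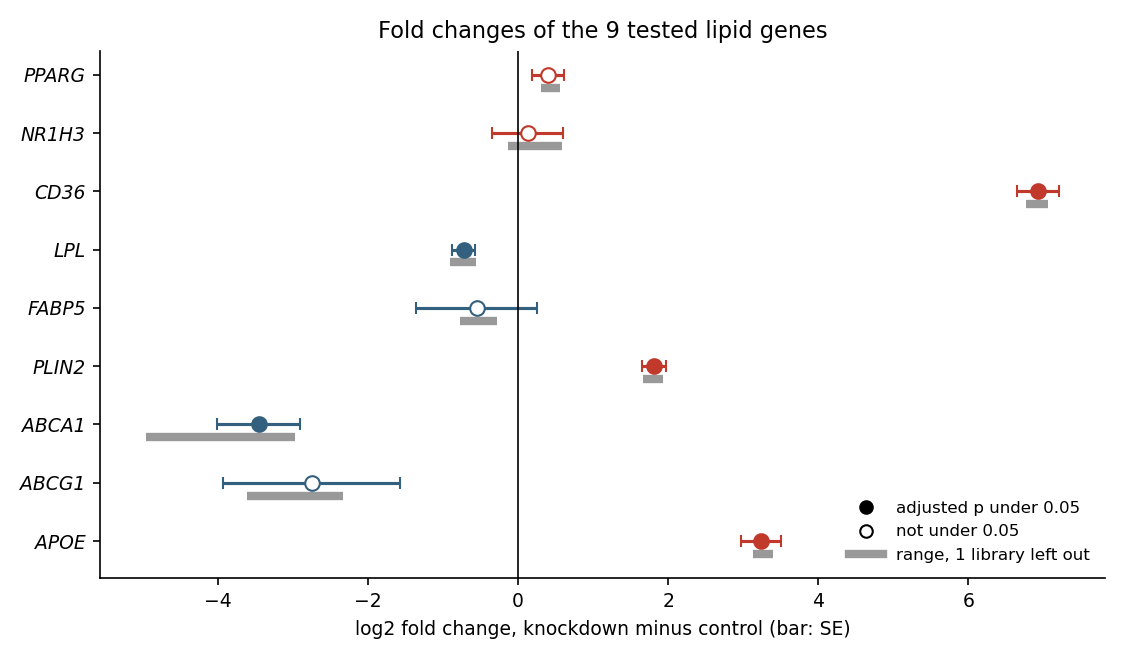
Log2 fold change of the 9 tested members, knockdown minus control, with SE (thin bars); grey bars give the range when each library is left out in turn. Filled points passed an adjusted p of 0.05 over all genes. CD36 stands at 6.93 and ABCA1 at -3.45, and the bar of NR1H3 crosses 0.

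Of the 9 tested members, 6 had groups that did not overlap, 3 higher and 3 lower. Among all genes tested, 28.9% had groups that did not overlap, 13.3% higher and 15.6% lower. Among the genes known as PPARG targets, CD36 and PLIN2 were higher and LPL lower, while FABP4 had too few counts to be tested. NR1H3, which PPARG can raise in macrophages, was not called. Among those known as LXR targets, APOE was higher and ABCA1 and ABCG1 lower, ABCG1 without a call.

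Levels between genes were compared as CPM per kilobase of annotated exon (RPKM). In the control the order was LPL at 43.1 ± 2.64, PLIN2 at 8.63 ± 0.663, PPARG at 6.84 ± 0.299, ABCA1 at 2.47 ± 0.314 and APOE at 2.18 ± 0.0676 RPKM (SD, n = 3). Then came NR1H3 at 1.54, FABP5 at 1.53, ABCG1 at 0.427 and CD36 at 0.0723 RPKM, with FABP4 at 0. The ranges of neighbours overlapped from ABCA1 down to FABP5, so neighbours in that stretch have no clear order. ABCA1 and APOE both lay wholly above FABP5. In the knockdown PLIN2 (30.3 ± 5.40), LPL (26.2 ± 5.98) and APOE (20.6 ± 4.003) led. The range of LPL overlapped those of both others, and PLIN2 lay wholly above APOE. CD36 reached 9.06 ± 1.71 RPKM, next to PPARG at 9.05 ± 1.74. CD36 moved from the lowest detected member in the control to an RPKM like that of PPARG, and ABCA1 dropped below FABP5, to 0.225 ± 0.252 RPKM. The likeness of CD36 and PPARG depends on the lengths used, all annotated exons merged, of 10880 and 4535 bases. Before division by length their knockdown means were 98.6 and 41.0 CPM.

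The partners of the receptors were examined as a list of 18 nuclear receptors and coregulators, of which 17 were tested. This list and the related lists below were also drawn up with earlier results of these data known. Their counts and p-values are therefore a description and no unbiased test of the lists. In the whole-table edgeR test 4 were called higher and 0 lower, beside 5.19% and 5.56% of all genes. At an unadjusted p under 0.05 there were 6 genes in either direction, and DESeq2 and limma-voom also called 0 lower. The list's median log2 fold change was 0.24, against 0.01 over all genes tested. PPARGC1A, a coactivator of PPARG and other receptors, had 141, 216 and 146 counts in the knockdown and 0, 1 and 0 in the control. That is a count ratio of 482 (exact 95% interval 86.0 to 19060), and its fitted log2 fold change of 8.46 became 10.34 without control 2. PPARGC1A passed the filter on low counts through the knockdown alone, the group where it is high. NCOA1, a coactivator that adds acetyl groups, rose from 6.06 ± 2.00 to 18.8 ± 0.963 CPM (log2 1.64, SE 0.35, adjusted p = 0.00583 in edgeR). Its relative NCOA3, outside the naming rule and chosen after its value was seen, rose from 62.1 ± 11.6 to 117 ± 12.4 CPM (log2 0.91, SE 0.16, adjusted p = 0.00151 in edgeR). PPARD, the widely expressed relative of PPARG, had 26.1, 41.5 and 26.7 CPM in the knockdown and 22.5, 8.59 and 14.0 in the control (log2 1.06, SE 0.33, adjusted p = 0.0495 in edgeR). The PPARD call did not survive leaving out knockdown 2 (0.82), knockdown 3 (1.18), control 2 (0.78) or control 3 (1.01).

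The RXR partners of PPARG and NR1H3 were not called. RXRA had 159 ± 46.6 CPM in the knockdown and 146 ± 4.60 in the control (adjusted p = 0.737 in edgeR), with knockdown 1 highest at 212. RXRB, named after its values were seen, had 60.9, 58.6 and 52.5 CPM in the knockdown and 65.5, 73.4 and 81.5 in the control, lower without overlap (log2 -0.36, SE 0.16, adjusted p = 0.190 in edgeR). RXRG was at 0 in all libraries. The relatives of the members were not called either, apart from PPARD. NR1H2, LXR beta, stood at 33.5 ± 9.67 and 25.9 ± 3.68 CPM (adjusted p = 0.427 in edgeR). PPARA, the liver-type fatty acid receptor, was scarce, at 8.51 ± 3.33 and 4.97 ± 0.607 CPM, and its groups did not overlap (adjusted p = 0.377 in edgeR). The differentiation factors CEBPA and CEBPB, which act with PPARG in fat cells, had log2 fold changes of 0.28 and 0.24 (adjusted p = 0.458 and 0.584 in edgeR).

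A second list held 24 genes for PPAR response and lipid storage. Of these, 15 did not pass the filter, 5 of them with 0 counts throughout. Of all 58302 genes counted, 44284 did not pass it. Of the 9 tested, 2 were called higher and 0 lower, beside 10.8% of all genes in either direction, with a median of 0.23. At an unadjusted p under 0.05 there were 3. Without the filter and with limma-voom 1 was called lower, HILPDA, and DESeq2 called 0 lower. MGLL, the lipase that splits monoglycerides, rose from 37.3 ± 2.58 to 66.9 ± 10.4 CPM (log2 0.84, SE 0.18, adjusted p = 0.00539 in edgeR). CPT1A, which admits fatty acids to mitochondria for burning, rose from 71.4 ± 3.50 to 113 ± 14.8 CPM (log2 0.67, SE 0.15, adjusted p = 0.00668 in edgeR), a call lost without control 2 (0.62). HILPDA, a droplet protein that blocks fat breakdown, had 18.6 ± 5.11 CPM in the knockdown and 32.7 ± 4.53 in the control, with no overlap (log2 -0.82, SE 0.26, adjusted p = 0.0580 in edgeR). PLIN3, the general droplet coat, stood at 64.7 ± 17.4 and 55.2 ± 5.94 CPM (adjusted p = 0.552 in edgeR), and the difference from PLIN2 was not tested. ANGPTL4, a strong PPAR target that inhibits LPL, had 24, 0 and 12 counts in the knockdown and 3, 0 and 0 in the control, and was not tested.

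The next list held fatty acid transporters, carriers and activating enzymes. Of 23 genes 15 were tested, and 0 were called higher and 1 lower, beside 5.19% and 5.56% of all genes, with 5 at an unadjusted p under 0.05 and a median of 0.14. DESeq2 called 1 higher and 1 lower, and limma-voom 0 higher and 1 lower. The gene DESeq2 called higher was CAV1, which encodes the caveola coat protein and was named after its values were seen. It had 81, 12 and 11 counts in the knockdown and 7, 1 and 1 in the control (adjusted p = 0.0945 in edgeR). CAV1 also passed the filter on low counts through the knockdown alone. ACSL3, which activates fatty acids at growing droplets, fell from 147 ± 13.2 to 103 ± 8.96 CPM (log2 -0.51, SE 0.13, adjusted p = 0.0227 in edgeR). The ACSL3 call did not survive leaving out knockdown 3 (-0.47), control 2 (-0.48) or control 3 (-0.46), or scaling by library size alone (-0.43). ACSL1, a PPAR target of the same family, had 124 ± 16.1 and 96.1 ± 4.02 CPM, higher in 3 of 3 knockdown libraries but not called (0.37, adjusted p = 0.112 in edgeR).

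Genes of LXR response and cholesterol handling were called in both directions. Of 23 genes 15 were tested, and 5 were called higher and 3 lower, beside 5.19% and 5.56% of all genes, with a median of 0.17. The 3 lower genes are known LXR targets of lipid synthesis and uptake control. MYLIP, which marks the LDL receptor for breakdown, had 50.3, 59.5 and 43.1 CPM in the control and 3.13, 9.89 and 10.3 in the knockdown, a 6.55-fold fall (log2 -2.71, SE 0.35, adjusted p = 6.70e-05 in edgeR). SCD, the desaturase that makes oleate, fell from 594 ± 9.82 to 238 ± 81.7 CPM (log2 -1.32, SE 0.19, adjusted p = 0.000175 in edgeR). SREBF1, the master switch of fatty acid synthesis, fell from 41.8 ± 9.26 to 17.97 ± 9.26 CPM (log2 -1.21, SE 0.32, adjusted p = 0.0232 in edgeR). The SREBF1 call was lost without knockdown 3 (-1.17), control 1 (-1.04) or control 2 (-1.24), and with library size alone (-1.13).

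The 5 higher genes act on cholesterol inside the cell or at its surface. NCEH1, which frees cholesterol from stored esters in macrophages, had 26.9, 22.5 and 22.2 CPM in the control and 114, 81.5 and 101 in the knockdown (log2 2.05, SE 0.18, adjusted p = 1.40e-06 in edgeR). LIPA, the lysosomal lipase for cholesterol esters, rose from 58.6 ± 10.1 to 129.7 ± 15.1 CPM (log2 1.15, SE 0.16, adjusted p = 0.000179 in edgeR). CYP27A1, which makes an oxidised cholesterol that binds LXR, was at 0 in all controls and had 14, 33 and 26 counts in the knockdown. CYP27A1 therefore passed the filter on low counts through the knockdown alone, the group where it is high. The exact 95% interval of its count ratio began at 18.47 (counting error only). Its place among the 5 called genes is a description only, since the group that is high also carried it through the filter. CYP27A1 was called in only 1 of the 6 fits that left out a library, with fitted log2 changes of 7.38 to 7.85. The others, outside the naming rule and named after their values were seen, were NPC1, the lysosomal cholesterol exporter, at 0.91 (SE 0.17, adjusted p = 0.00219 in edgeR), and SCARB1, a receptor that exchanges cholesterol with particles, at 0.50 (SE 0.13, adjusted p = 0.0220 in edgeR). SCARB1 passed only in the fits without knockdown 1 or knockdown 2 (0.45 to 0.54 in the other 4). SOAT1, which makes the esters that NCEH1 splits, stood at 45.8 ± 15.1 CPM in the knockdown and 48.4 ± 6.20 in the control (adjusted p = 0.897 in edgeR).

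**Figure D4:**
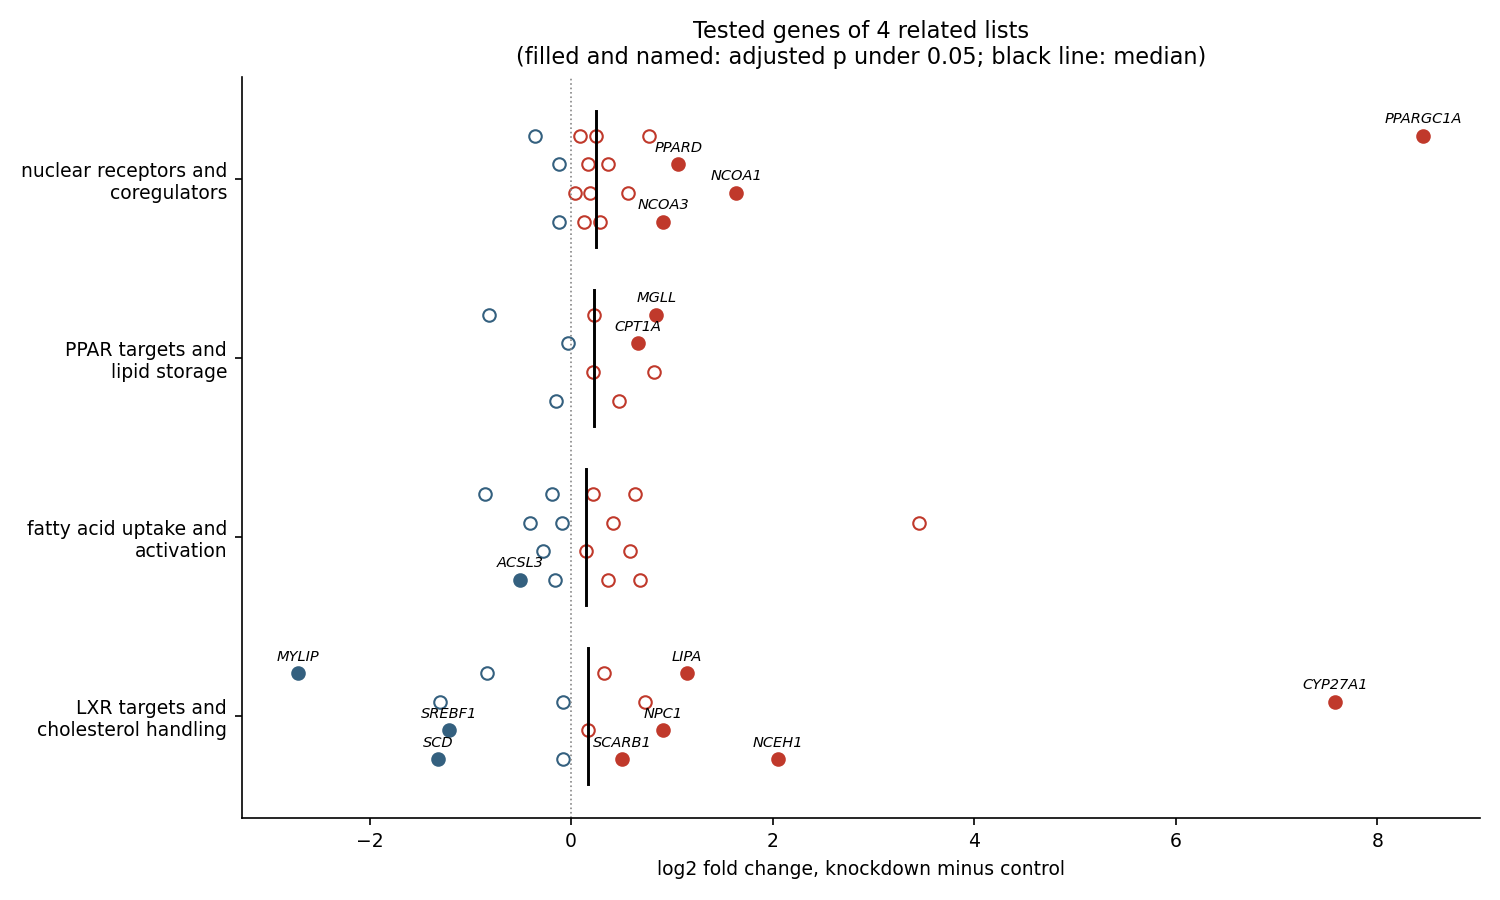
Log2 fold change, knockdown minus control, of the tested genes in 4 related lists (1 point per gene; filled and named where the edgeR adjusted p over all genes is under 0.05; black lines are list medians). MYLIP at -2.71 and CYP27A1 at 7.58 bound the cholesterol list, and the CYP27A1 value rests on controls at 0.

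The genes with profiles most like those of CD36 and ABCA1 were sought among 10184 genes with a mean of at least 5 CPM. The measure was the root mean square difference of log2 CPM centred on the control mean over the 6 libraries. The log2 CPM included a prior count of 2, which shrinks fold changes where controls are near 0, so the order depends in part on it. PPARGC1A (0.46), the adhesion gene CADM1 (0.54) and the ephrin receptor gene EPHB2 (0.75) were closest to CD36. For ABCA1 they were HLA-DRA (0.96), the proteoglycan gene VCAN (0.98) and HLA-DRB5 (0.98), each about as far from ABCA1 as the others. HLA-DRB5 may share reads with other HLA-DRB genes.

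Total counts per library ran from 8326982 to 10157091. The promyelocyte markers MPO, ELANE, AZU1, PRTN3, CTSG and CD33 were all detected, and summed to 2650 to 2815 CPM in the control and 897 to 1065 in the knockdown. The sum is weighted to abundant genes, since 1 marker alone reached 1318 CPM in a library. Of the 6 markers, 4 were called, all lower, beside 5.56% of all genes tested, and the rest were not called. Their sum fell in the same comparison in which some members rose and others fell, and their part in these results was not tested. Of 7 adipocyte markers, ADIPOQ, LEP, CIDEA and AQP7 were at 0 in all libraries, and the list summed to 0 in every control and 0 to 3.08 CPM in the knockdown. The 6 megakaryocyte and platelet markers summed to at most 2.96 CPM and 5 endothelial markers to at most 1.202 CPM in any library, with PPBP, GP9, GP1BB, CDH5, TEK and CLDN5 at 0. Monocyte and macrophage markers, another type that carries CD36, were not examined as a list. Erythroid, lymphoid and hepatocyte markers summed to at most 1.19, 5.91 and 2.73 CPM.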

How the data were processed

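Total RNA of 6 HL-60 libraries was made into stranded mRNA libraries and read as 150 bp pairs, per the labels' protocols. For each library the authors deposited a file of raw counts for the same 58302 Ensembl identifiers. The submitters' processing notes list HISAT2 2.1.0, featureCounts 1.6.3 and the builds GRCh38 and GRCm38, without roles; the sources used here do not give the strand setting, the annotation or how multiple alignments were treated. Symbols, positions and exon lengths came from GENCODE release 29 (GRCh38), which holds 58039 identifiers, with current names for 57532; all 129 listed symbols were matched. Groups and replicate numbers came from the titles.

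Genes were tested with edgeR 4.0.16 (glmQLFit and glmQLFTest, R 4.3.3), two-sided, with group as the only term, TMM scaling, filterByExpr (minimum count 10, minimum total 15) and Benjamini-Hochberg adjustment over 14018 genes; calls are at an adjusted p under 0.05. The SE is the log2 change divided by the root of F. Ratio intervals are exact 95% intervals of counts, and together with floors of 3 counts they describe counting error alone: no molecular identifiers are named, and reads need not be independent molecules. Pairs of libraries of a group differed by a chi-square per degree of freedom of 10.5 to 25.6, so none was counted as a copy of another.

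The members and the 4 related lists were chosen with earlier results of these data known. A rule named 38 genes: the 10 members; OSGEP and 15 set partners and targets; up to 3 called genes per direction and list whose mean reached 1 CPM; and the 3 genes most like CD36 and ABCA1. NCOA3, NPC1, SCARB1, APOC1, CAV1 and RXRB were added later. Alternatives were RLE factors, library size alone, no filter, a mean CPM filter of 5, a replicate block, leaving out each library, DESeq2 1.42.0 and limma-voom 3.58.1. The steps were tested on simulated counts.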

Additional observations from a re-analysis of the deposited data

How the results depend on the processing

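The members were chosen from this contrast and the alternatives reuse the same libraries, so their calls are listed here as a description only. The 3 calls higher and 2 lower recurred under all 13 alternatives, except that LPL lost its call without knockdown 3, at -0.68. That left 4 to 5 members called in the 6 fits with 1 library left out. Over those 6 fits the log2 fold changes ranged from 6.77 to 7.06 for CD36, 1.66 to 1.93 for PLIN2, 3.13 to 3.40 for APOE, -0.91 to -0.56 for LPL, -4.96 to -2.97 for ABCA1, -3.61 to -2.33 for ABCG1, 0.31 to 0.56 for PPARG, -0.77 to -0.27 for FABP5 and -0.14 to 0.59 for NR1H3. RXRA ranged from -0.14 to 0.29 and SOAT1 from -0.37 to 0.12, so their direction is not settled. All genes called numbered 1507 and 870 to 1624 with 1 library left out, the fewest without control 3, with 890 without control 2 and 941 without knockdown 3. Library size alone gave 859 higher and 612 lower, against 727 and 780. With 1 library left out, calls numbered 1 to 2 among PPAR targets, 0 to 2 among fatty acid uptake genes and 5 to 8 among cholesterol genes. The fatty acid uptake list, with 1 call, had 0 with library size alone, 0 with the replicate block and 2 with DESeq2. HILPDA passed with no filter (-0.81) and with limma-voom (-0.87). At 1 changed base, or none, 0 member windows held either repeat. The cause was not tested. Same-numbered libraries did not deviate together (correlations -0.21, -0.09 and -0.04 over 10484 genes), so the replicate numbers are not taken as pairs; the replicate block gave 1072 calls, and under it PPARD (1.12), ACSL3 (-0.51), CYP27A1 (7.54) and SCARB1 (0.50) were not called, while all 5 members were. A mean CPM filter of 5 gave no value for ABCG1, FABP5, CYP27A1 and CAV1. With few reads, ABCG1, FABP4, FABP5 and CYP27A1 limit what these libraries can show.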
